A study of Mus musculus with 7 samples.

Results

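The genes described here are the 10 mouse genes of the MHC class II complex and its regulators that were read in single cells of injured and sham-operated hearts: H2-Aa, H2-Ab1, H2-Eb1, Cd74, H2-DMa, H2-DMb1, H2-DMb2, H2-Oa, H2-Ob and Ciita. They were taken by symbol from the 32285 genes in the count tables, and each of the 10 matched 1 row. The study placed 7 libraries in 6 groups. Both Mertk KO groups had the age label P1, postnatal day 1, with 1 library after myocardial infarction (MI) and 1 after sham surgery. The wild-type groups, of the C57BL6/J strain, were WT 8 week MI with 1 library, WT 8 week sham with 1, WT P1 MI with 2 and WT P1 sham with 1. Mertk encodes a receptor that macrophages use to take up dying cells. The labels give neither the deleted part of Mertk, nor whether the age is that at surgery or at harvest, nor the time between surgery and harvest, nor the number of hearts in a library, so the replicates may be technical and p-values measure only the spread between the 2 WT P1 MI libraries. Infarcted tissue was digested with collagenase, dead cells were removed, and CD45+ cells were enriched and then recombined with CD45- cells at a set ratio, so the shares of cell types within a library follow the recombination as well as the heart.

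MHC class II molecules carry peptides taken from the endosome to the surface of antigen-presenting cells, where CD4+ T cells read them. H2-Aa and H2-Ab1 encode the alpha and beta chains of one such molecule, and H2-Eb1 the beta chain of a second one, whose alpha chain C57BL/6 mice do not make. Cd74 encodes the invariant chain that fills the groove until the molecule reaches the endosome. H2-DMa pairs with H2-DMb1 or H2-DMb2 to swap the last piece of the invariant chain for peptide, and the H2-Oa and H2-Ob pair restrains that exchange. Ciita encodes the coactivator that turns the whole set on, constitutively in dendritic cells and B cells and after interferon-gamma in many other cells. In the mouse heart, class II is commonly used to tell resident macrophage sets apart.

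The class II genes lie together on chromosome 17 of GRCm38, with H2-Oa at the start and H2-Eb1 at the end, whereas Ciita and Cd74 are on other chromosomes. H2-Aa spans chr17:34282744-34287823 on the minus strand and H2-Ab1 chr17:34257689-34269419 on the plus strand. Their shared promoter module ends in a reversed CCAAT box, the binding motif of NF-Y, and the stretches that hold it are shown. A part of the motif in the levels given below was not tested. RefSeq promoters of GRCm38.p6, running from 250 bases before to 50 bases after the start, were present for 7 of the 10 genes. The letters TGATTGG were found on the gene's own strand in 6 of these 7 genes. They are in capitals in the 80 bases from position -110 to -31 below, on the gene's strand and 5′ to 3′, and H2-DMa was the gene without them.
H2-Aa, chr17:34287854-34287933, minus strand: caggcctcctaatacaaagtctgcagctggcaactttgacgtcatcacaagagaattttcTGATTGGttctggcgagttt
H2-Eb1, chr17:34305757-34305836, plus strand: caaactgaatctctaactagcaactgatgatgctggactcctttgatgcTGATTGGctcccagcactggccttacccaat
H2-DMb1, chr17:34153081-34153160, plus strand: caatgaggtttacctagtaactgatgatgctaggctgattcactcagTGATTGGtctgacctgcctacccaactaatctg
H2-DMb2, chr17:34145139-34145218, plus strand: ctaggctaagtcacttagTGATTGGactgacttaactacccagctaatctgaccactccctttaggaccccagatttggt
H2-Oa, chr17:34092269-34092348, plus strand: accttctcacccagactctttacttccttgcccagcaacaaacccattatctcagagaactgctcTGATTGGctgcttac
H2-Ob, chr17:34238795-34238874, plus strand: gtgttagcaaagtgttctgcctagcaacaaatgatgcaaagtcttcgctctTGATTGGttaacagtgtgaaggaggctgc
The first T of the motif stood 50 bases before the start in H2-Aa, 61 in H2-Eb1, 63 in H2-DMb1, 92 in H2-DMb2, 45 in H2-Oa and 59 in H2-Ob. Among all 32851 RefSeq promoters, 7.82% held the letters on either strand, 4.01% held them on the gene's strand, and 1.74% held them on the gene's strand with the first base between -100 and -40. That window holds all 6 positions given above, so its share is a description and not an independent background. The match describes the letters and is not a measured binding site.

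Depth differed widely between the libraries, with 7707724 UMIs in WT 8 week MI and 130847843 in WT P1 MI replicate 2. Cells kept ranged from 767 in WT P1 MI replicate 1 to 13306 in WT 8 week sham, and the UMIs of the median cell ranged from 2142.5, in WT 8 week MI, up to 11408, in the first WT P1 MI replicate. WT 8 week sham and WT P1 MI replicate 2 carried Cell Ranger 6.1.0 in their headers and the other 5 libraries 4.0.0. No pair of libraries shared more than 0.59% of the smaller library's barcodes. Sex transcripts also split the groups, since Xist had at most 0.0368 UMIs per 1000000 UMIs (UPM) in both WT 8 week libraries, between 46.4 and 936 in the 5 P1 libraries, and Ddx3y had none in Mertk KO P1 sham. Age, sex makeup, depth and Cell Ranger version therefore cannot be told apart in several comparisons. The Mertk tag was counted at 12.3 and 45.4 UPM in macrophage-like cells of Mertk KO P1 MI and Mertk KO P1 sham, and at 26.0 to 49.0 in those of the WT libraries. A 3′ tag may lie outside the deleted part, so it does not check the genotype, and these are called the libraries labelled Mertk KO.

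Levels are given in UPM, the UMIs of a gene per 1000000 UMIs summed over the cells of one class in one library. They are 3′ tag counts and are not divided by gene length. The core level is the sum of H2-Aa, H2-Ab1 and H2-Eb1. Classes were named from marker genes, with the 10 genes themselves kept out of the clustering. Between 76 and 2262 macrophage-like cells, 32 and 1471 monocyte-like cells, 8 and 648 dendritic cell-like cells, 55 and 3257 B cell-like cells and 59 and 2590 endothelial-like cells were found per library. Each class held UMIs of at least 10 of its own markers in every library.

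Dendritic cell-like cells held the highest core level of the named classes in each library. It was 10181 UPM in Mertk KO P1 MI, 15758 in Mertk KO P1 sham, 45866 in WT 8 week MI, 27385 in WT 8 week sham, 19002 and 18638 in the WT P1 MI replicates and 16179 in WT P1 sham. WT P1 sham and WT P1 MI replicate 1 had only 10 and 8 such cells, so these 2 values rest on few cells. The class was 1 cluster led by Cd209a, Clec10a, Xcr1 and Clec9a, genes of conventional dendritic cells. It made up 0.639% to 4.87% of the cells kept and held 13.1% to 56.4% of their core UMIs.
B cell-like cells came next in every library, with a core level of 6043 UPM in Mertk KO P1 MI, 4316 in Mertk KO P1 sham, 10252 in WT 8 week MI, 11285 in WT 8 week sham, 4616 and 5858 in the WT P1 MI replicates and 5494 in WT P1 sham. The lowest dendritic value, in Mertk KO P1 MI, lay below the B cell-like values of both WT 8 week libraries, so the order holds within libraries rather than across them. Macrophage-like cells ranged from 218 in WT P1 sham to 5746 in WT 8 week sham, and monocyte-like cells from 491 in Mertk KO P1 MI to 4427 in WT 8 week MI. Endothelial-like cells lay far lower, between 4.50 in Mertk KO P1 sham and 230 in WT 8 week sham. Macrophage-like cells nevertheless gave 67.5% of the core UMIs of WT 8 week MI, where they were 74.2% of the cells kept, against 2.70% in WT 8 week sham, where they were 1.17% of the cells kept.

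**Figure D1:**
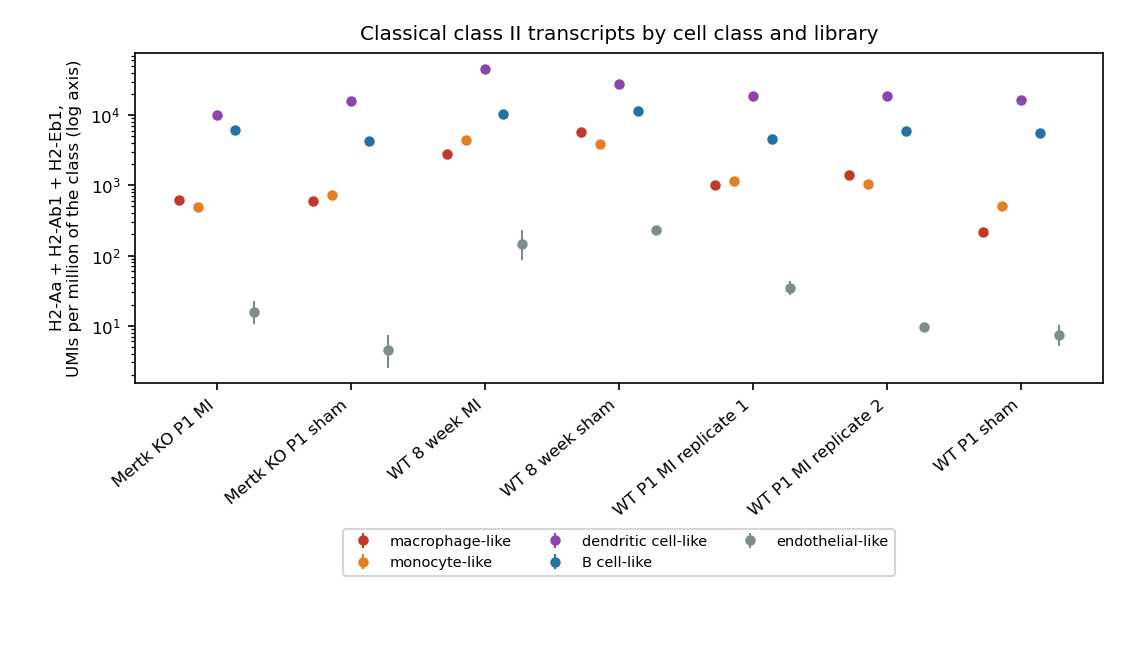
Core class II level (H2-Aa, H2-Ab1 and H2-Eb1 summed, UPM on a log axis) by library, with 1 point per class and bars for 95% counting intervals. Dendritic cell-like and B cell-like cells lie above macrophage-like and monocyte-like cells, and endothelial-like cells lowest; the dendritic points of WT P1 sham and WT P1 MI replicate 1 rest on 10 and 8 cells.

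The share of cells with at least 1 core UMI followed the same division. It was 70.3% to 98.5% in dendritic cell-like cells and 85.5% to 99.9% in B cell-like cells. In macrophage-like cells it was 17.8% in Mertk KO P1 MI, 19.4% in Mertk KO P1 sham, 49.0% in WT 8 week MI, 88.5% in WT 8 week sham, 23.7% and 26.98% in the WT P1 MI replicates and 11.2% in WT P1 sham. With cells thinned to 1500 UMIs and shallower cells left out, between 11 of 101 cells in Mertk KO P1 MI and 457 of 2262 in WT 8 week MI, these shares were 12.2% in Mertk KO P1 MI, 13.6% in Mertk KO P1 sham, 38.9% in WT 8 week MI, 63.6% in WT 8 week sham, 14.8% and 20.4% in the WT P1 MI replicates and 5.17% in WT P1 sham. Both WT 8 week libraries thus stood above all 5 P1 libraries at equal depth. Cd74 was seen more widely than the core genes, in 27.8% and 20% of thinned macrophage-like cells of Mertk KO P1 MI and Mertk KO P1 sham, 55.7% of WT 8 week MI, 68.6% of WT 8 week sham, 31.1% and 33.9% of the WT P1 MI replicates and 19.5% of WT P1 sham.

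The peptide-editing genes separated B cell-like cells from the myeloid classes. Of the UMIs of both H2-DM beta chains, H2-DMb2 took 83.2% to 93.1% in B cell-like cells across the 7 libraries, 1.49% to 25.8% in macrophage-like cells, 2.70% to 12.5% in monocyte-like cells and 4.44% to 29.6% in dendritic cell-like cells. The B cell-like range did not overlap any myeloid range. In WT 8 week sham, for example, B cell-like cells held 527 UPM of H2-DMb2 and 76.5 of H2-DMb1, whereas dendritic cell-like cells held 234 of H2-DMb2 and 811 of H2-DMb1. Some reads may not tell the 2 genes apart, since 13.6% of 98-base windows in the last 500 transcript bases of H2-DMb1 are also found in H2-DMb2. The share of the inhibitor pair was likewise highest in B cell-like cells, with H2-Oa and H2-Ob at 19.9% to 41.7% of all H2-O and H2-DM UMIs. It was 2.96% to 10.5% in macrophage-like cells, 5.42% to 12.0% in dendritic cell-like cells and 1.12% to 4.50% in monocyte-like cells. H2-Ob, for instance, had 235 to 431 UPM in B cell-like cells and 1.23 to 17.0 in macrophage-like cells. In dendritic cell-like cells of the 5 libraries with at least 20 of them, H2-Ob had 26.8 to 169 UPM. The H2-Oa level did overlap, at 66.5 to 328 UPM in these dendritic cell-like cells and 113 to 290 in B cell-like cells. The lowest B cell-like H2-O share, 19.9%, was that of WT 8 week MI, and the other 6 libraries lay between 34.4% and 41.7%. The sources used here do not state the counting strand, and H2-DMa overlaps Brd2, H2-Oa overlaps BC051537, H2-Eb1 overlaps Gm20513 and Ciita overlaps Dexi on the opposite strand, so reads of these pairs may not be separable.

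**Figure D2:**
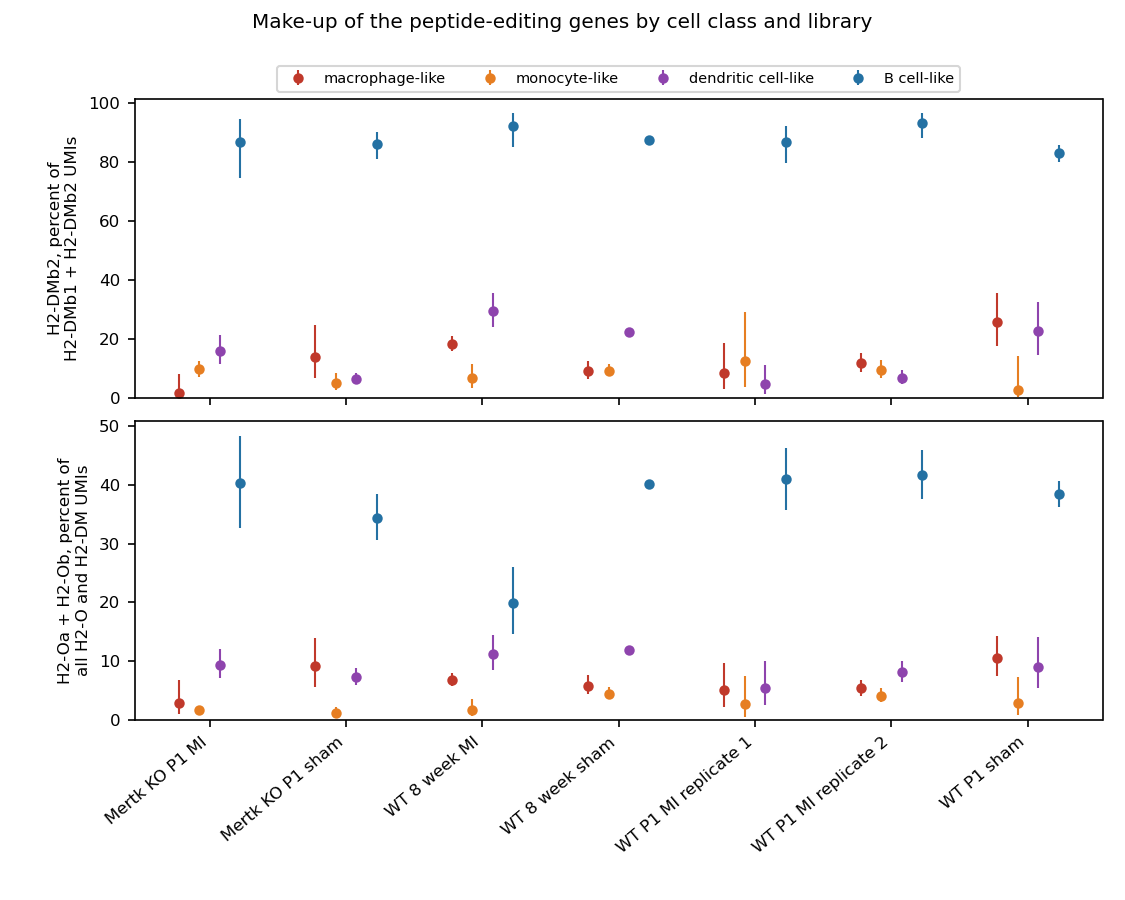
Share of H2-DMb2 among the UMIs of both H2-DM beta chains (upper panel) and of H2-Oa and H2-Ob among all H2-O and H2-DM UMIs (lower panel), in percent with 95% intervals, by library with 1 point per class. B cell-like cells lie at 83.2% to 93.1% in the upper panel, above every myeloid value; the dendritic points of WT P1 sham and WT P1 MI replicate 1 rest on 10 and 8 cells.

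For other proportions WT 8 week MI was the lowest or highest library in some classes. The H2-Eb1 share of the core UMIs in WT 8 week MI was 20.95% in macrophage-like cells, 19.9% in dendritic cell-like cells and 23.3% in B cell-like cells, the lowest of the 7 libraries in each of these classes. The other libraries held 21.5% to 34.8% in macrophage-like cells, 26.3% to 30.2% in dendritic cell-like cells and 26.8% to 31.4% in B cell-like cells. In dendritic cell-like cells Cd74 made up 64.0% of Cd74 and core UMIs in WT 8 week MI and 46.5% to 52.9% in the other libraries. In B cell-like cells the Cd74 share was 73.3% in WT 8 week MI and 58.2% to 70.8% in the other libraries. In macrophage-like cells it was 64.8% in Mertk KO P1 MI, 54.6% in Mertk KO P1 sham, 68.2% in WT 8 week MI, 53.3% in WT 8 week sham, 59.6% and 55.4% in the WT P1 MI replicates and 68.5% in WT P1 sham, so WT 8 week MI was not the highest there. The Cd74 share was lower in dendritic cell-like than in B cell-like cells of each library.

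In macrophage-like cells, class II was higher in WT 8 week MI than in WT P1 MI, with 6 of the 10 genes past the test. H2-Aa had 1101 UPM in WT 8 week MI, against 339 and 539 in the WT P1 MI replicates, a log2 fold change of 1.67 ± 0.49 (approximate SE, adjusted p = 0.00578, edgeR). H2-Ab1 had 1142 UPM in WT 8 week MI, against 325 and 404 in the WT P1 MI replicates, and rose by 2.00 ± 0.48 on the log2 scale (adjusted p = 0.000558, edgeR). Cd74 had 6091 UPM in WT 8 week MI, against 1501 and 1749 in the WT P1 MI replicates, and rose by 2.27 ± 0.58 on the log2 scale (adjusted p = 0.00135, edgeR). The 8 week library stood above both P1 replicates for each of these genes, by more than the replicates differed.
Genes of peptide exchange rose as well. H2-DMb1 was 127 UPM in WT 8 week MI, against 73.6 and 74.8 in the WT P1 MI replicates, and rose by 1.13 ± 0.40 on the log2 scale (adjusted p = 0.0256, edgeR). H2-DMb2 had 28.5 UPM in WT 8 week MI, against 6.69 and 9.88 in the WT P1 MI replicates, and rose by 1.98 ± 0.44 (adjusted p = 0.000149, edgeR). H2-Ob had 13.6 UPM in WT 8 week MI, against 8.03 and 6.39 in the WT P1 MI replicates, and rose by 1.32 ± 0.51 (adjusted p = 0.0446, edgeR). H2-Eb1 did not pass the test, with 595 UPM in WT 8 week MI against 355 and 465 in the WT P1 MI replicates and a log2 difference of 0.89 (adjusted p = 0.173, edgeR). A gene was called at an adjusted p under 0.05 with at least a 2-fold difference, and 10.9% of the 10736 genes tested were called higher in this comparison. H2-DMb1 and H2-Ob passed the fold limit through the TMM scaling, and with library totals their log2 fold changes were 0.77 and 0.98. The count was 3 of 10 with DESeq2 and 2 of 10 when each library was clustered on its own.

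The sham libraries, which have 1 library per group and no test, differed in the same direction. H2-Aa had 2148 UPM in macrophage-like cells of WT 8 week sham and 77.2 in those of WT P1 sham, a log2 ratio of 4.79 (4.57 to 5.02, an approximate 95% counting interval that covers counting error only). Cd74, at 6559 in WT 8 week sham and 474 in WT P1 sham, gave a log2 ratio of 3.79. Of the 10 genes, 7 were more than 2-fold higher in WT 8 week sham and none more than 2-fold lower, where 10.3% of all genes were that much higher. WT 8 week sham held only 156 macrophage-like cells among 13306, and its macrophage-like sum also carried 8159 UPM of the 10 B cell markers, against 203 to 971 in the other libraries. Those B cell markers lay mainly in a small dividing cluster, described below, and their part in the result was not tested. In the Mrc1, Fcrls and C1qa cluster alone, which held 71 of these cells and 724 UPM of B cell markers, the core level of WT 8 week sham was 13564.

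**Figure D3:**
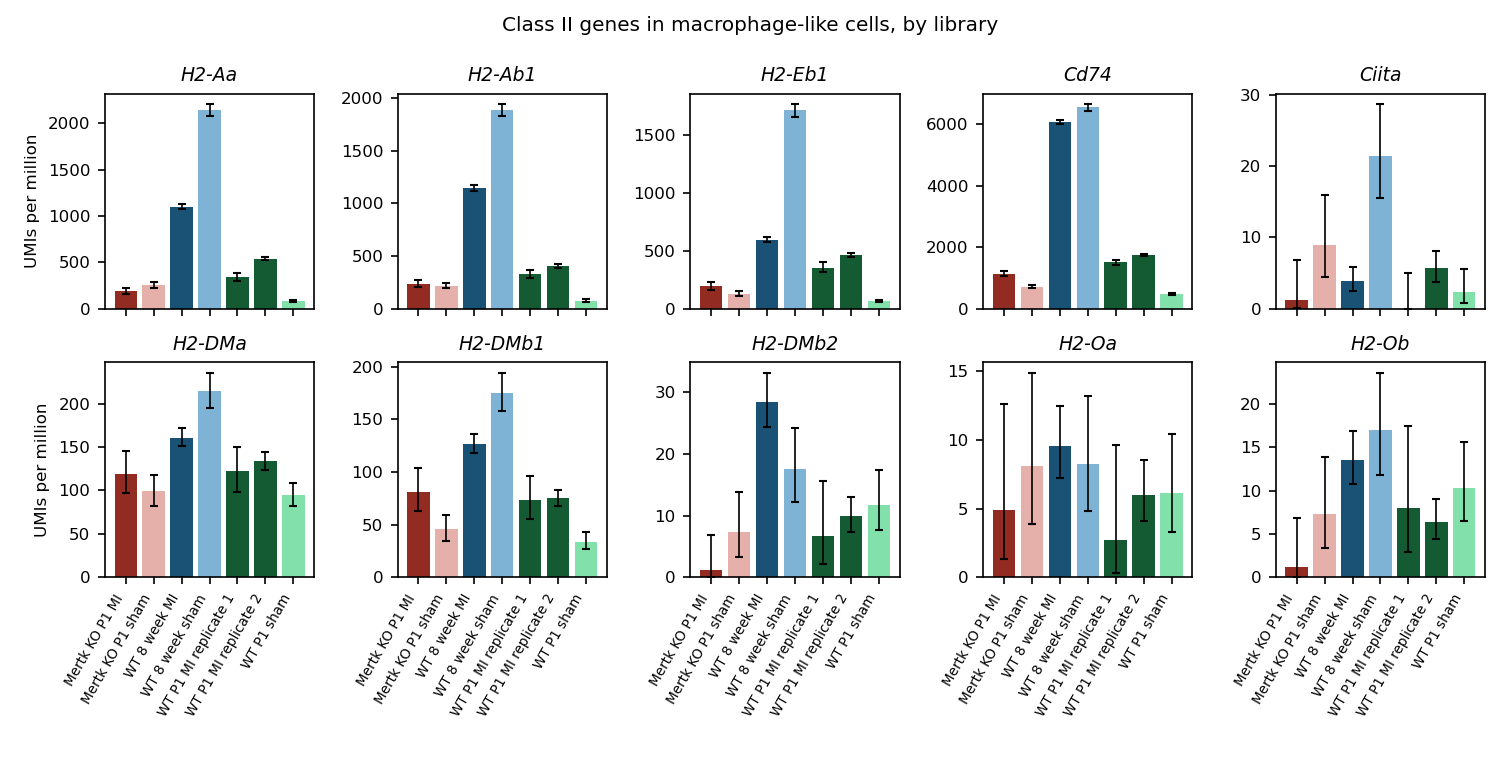
Level of each of the 10 genes in macrophage-like cells (UPM, linear axes that differ between panels), with 1 bar per library and 95% counting intervals. H2-Aa, H2-Ab1, H2-Eb1 and Cd74 are lowest in WT P1 sham and highest in WT 8 week sham, and H2-DMa spans only 94.6 to 215.

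After injury at P1, the WT macrophage-like core level was higher, and 3 of the 10 genes passed the test. H2-Aa had 339 and 539 UPM in the WT P1 MI replicates (438.9 ± 142, SD, n = 2) and 77.2 in WT P1 sham, and rose by 2.65 ± 0.59 on the log2 scale (adjusted p = 0.0013, edgeR). H2-Ab1 had 325 and 404 in the WT P1 MI replicates (364.7 ± 56.0, SD, n = 2) and 75.3 in WT P1 sham, and rose by 2.40 ± 0.58 (adjusted p = 0.00428, edgeR). H2-Eb1 had 355 and 465 in the WT P1 MI replicates (409.9 ± 78.2, SD, n = 2) and 65.4 in WT P1 sham, and rose by 2.78 ± 0.57 (adjusted p = 0.000323, edgeR). Both MI replicates lay at least 4-fold above the sham library for each chain. In WT P1 MI replicate 1, however, 1 of the 76 cells held 601 of the 761 core UMIs. In WT P1 sham 1 cell held 209 of 463, and in replicate 2 the richest cell held 336 of 7272. The part of these cells in the calls was not tested. In this comparison 1.07% of the 10736 genes tested were called higher. Cd74, with 1501 and 1749 UPM in the WT P1 MI replicates and 474 in WT P1 sham, did not pass (log2 difference 1.90, adjusted p = 0.245, edgeR), nor did H2-DMb1 (1.25, adjusted p = 0.3, edgeR).
These calls depend on which cells are counted as macrophage-like. A dividing cluster had been set aside because markers of another class scored higher in WT 8 week sham, and with it put back no gene was called. The core level was then 754 and 1679 UPM in the WT P1 MI replicates and 453 in WT P1 sham, and H2-Aa differed by 1.75 (adjusted p = 0.567, edgeR). No gene was called either when doublets were kept or when each library was clustered on its own. With only the clusters led by macrophage markers, the 3 chains remained called, H2-Aa by 3.12 (adjusted p = 0.0112, edgeR), and the core level was 1183 and 1463 in the WT P1 MI replicates and 165 in WT P1 sham.

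At 8 weeks the core level of the class was instead lower after injury, although that comparison has 1 library per group and no test. In a cluster led by Arg1 and Ccl24 it was 598 UPM in WT 8 week MI and 224 in WT 8 week sham. In the dividing cluster kept in the class it was 2678 in WT 8 week MI and 2331 in WT 8 week sham. The Mrc1, Fcrls and C1qa cluster was at 13564 in WT 8 week sham. It held 71 of 156 cells there and 16 of 2262 in WT 8 week MI. The part of this change of clusters in the fall and in the interaction below was not tested. H2-Aa had 1101 UPM in macrophage-like cells of WT 8 week MI and 2148 in those of WT 8 week sham, a log2 ratio of -0.96. H2-Eb1 had 595 in WT 8 week MI and 1714 in WT 8 week sham, a log2 ratio of -1.53, whereas Cd74 was nearly level at 6091 in WT 8 week MI and 6559 in WT 8 week sham, a log2 ratio of -0.11. Of the 10 genes, H2-Eb1 and Ciita were more than 2-fold lower and none was more than 2-fold higher, where 25.5% of all genes were that much lower. The count past 2-fold was 6 with macrophage-led clusters only and 9 with the set-aside cluster put back. The set-aside cluster had 66 cells in WT 8 week sham and 2 in WT 8 week MI. In WT 8 week sham it held more dendritic than macrophage marker UMIs (2216 and 381 UPM), at a core level of 22328. The difference between the effects of injury at the 2 ages was tested in the same fit and was called for 4 of the 10 genes, all with a smaller effect of MI at 8 weeks than at P1. The log2 interaction was -3.36 ± 0.82 for H2-Aa (adjusted p = 0.00225, edgeR), -2.88 ± 0.80 for H2-Ab1 (adjusted p = 0.0123, edgeR) and -4.06 ± 0.80 for H2-Eb1 (adjusted p = 5.08e-05, edgeR). In this contrast 3.82% of the genes tested were called lower, and 1 gene of the 10 was called with libraries clustered on their own. Ciita was also called (-3.26 ± 1.07, adjusted p = 0.0479, edgeR), but on 22 UMIs in WT 8 week MI, 44 in WT 8 week sham, 0 and 29 in the WT P1 MI replicates and 5 in WT P1 sham, and without replicate 2 its interaction was 2.90.

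**Figure D4:**
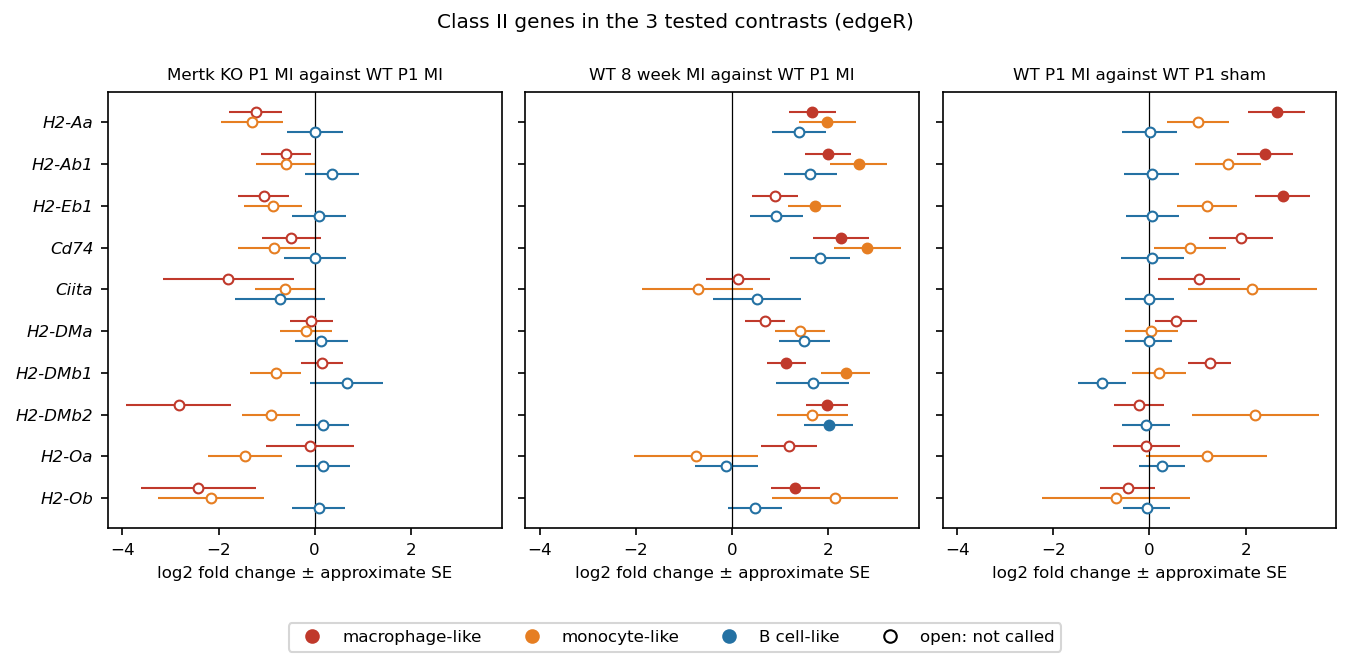
Log2 fold changes of the 10 genes in the 3 tested contrasts, 1 panel each, in macrophage-like, monocyte-like and B cell-like cells; lines are approximate SE and filled points were called. The filled macrophage-like points are none of 10 with Mertk KO P1 MI set against WT P1 MI, 6 for WT 8 week MI against WT P1 MI and 3 for WT P1 MI against WT P1 sham.

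In the libraries labelled Mertk KO, the macrophage-like core level was 615 UPM in Mertk KO P1 MI and 597 in Mertk KO P1 sham. H2-Aa had 186 in Mertk KO P1 MI and 253 in Mertk KO P1 sham, a log2 ratio of -0.44 with no test. The richest cell held 143 of the 500 core UMIs in Mertk KO P1 MI and 232 of 736 in Mertk KO P1 sham. The part of these cells in the values was not tested. More than 2-fold lower were H2-DMb2, H2-Ob and Ciita, each on 1 UMI in Mertk KO P1 MI, where 15.3% of all genes were that much lower. The count was 8 when each library was clustered on its own and 0 with 5 counts added. Against WT P1 MI, none of the 10 genes was called in Mertk KO P1 MI by edgeR or by DESeq2, where 1.02% of all genes were called by edgeR, and 4 genes had an unadjusted p under 0.05. Among these, H2-Aa had 186 UPM in Mertk KO P1 MI, against 339 and 539 in the WT P1 MI replicates, a log2 difference of -1.23 ± 0.55 (adjusted p = 0.439, edgeR). All 3 core chains in Mertk KO P1 MI lay below both WT P1 MI replicates. The sham libraries differed the other way, with H2-Aa at 253 in Mertk KO P1 sham and 77.2 in WT P1 sham, a log2 ratio of 1.71. In that untested pair 3 genes, H2-Aa, H2-Ab1 and Ciita, were more than 2-fold higher, where 9.26% of all genes were. The effect of MI in the libraries labelled Mertk KO minus that in WT was called for H2-Aa alone (-2.89 ± 0.82, adjusted p = 0.0488, edgeR), where 0.792% of all genes were called lower. That call was lost with DESeq2, without a low-count filter, with doublets kept, at a clustering resolution of 0.75 in place of 1.5, with macrophage-led clusters only and with the set-aside cluster put back.

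The class averages hid large differences between cells. In macrophage-like cells the tenth of cells richest in core UMIs held 97.0% of them in Mertk KO P1 MI, 98.4% in Mertk KO P1 sham, 82.2% in WT 8 week MI, 46.8% in WT 8 week sham, 97.9% and 91.9% in the WT P1 MI replicates and 99.6% in WT P1 sham. The P1 averages therefore describe a few class II-rich cells among many without a core UMI, whereas 88.5% of WT 8 week sham cells had one. The same share was 22% to 38.5% in dendritic cell-like cells of the 5 libraries with at least 20 of them and 21.2% to 30.6% in B cell-like cells.
Clusters within the class also differed. The Mrc1, Fcrls and C1qa cluster, whose leading genes mark resident tissue macrophages, held a core level of 667 UPM in Mertk KO P1 MI and 556 in Mertk KO P1 sham. It held 13564 in WT 8 week sham, 1183 and 1325 in the WT P1 MI replicates and 166 in WT P1 sham. WT 8 week MI instead had 1588 of its 2262 cells in a cluster led by Ms4a7, Ccl8, Gpnmb and Spp1, with a core level of 3651, and the 25 cells of that cluster in WT P1 MI replicate 2 held 4063. In WT 8 week MI, a cluster led by Arg1 and Ccl24 held 531 cells at 598, and in WT 8 week sham the same cluster held 43 cells at 224. Those 43 cells had more monocyte than macrophage marker UMIs (9779 and 5336 UPM). WT 8 week MI and the other libraries thus drew their class averages from different clusters. The dividing cluster kept in the class, led by Pf4, Pclaf and Birc5, had more B cell than macrophage marker UMIs in WT 8 week sham (43542 and 863 UPM) and in WT P1 sham (4949 and 4281 UPM). The dividing cluster that was set aside had 66 cells and a core level of 22328 in WT 8 week sham, with dendritic markers at 2216 UPM and macrophage markers at 381. It also held neutrophil markers at 30173 UPM in Mertk KO P1 MI and 46933 in WT P1 MI replicate 2, with macrophage markers at 5432 in Mertk KO P1 MI and 9490 in WT P1 MI replicate 2. A further cluster led by Prg4, Alox15 and Ltc4s stayed unnamed and held 825 cells of WT 8 week sham with a core level of 1139.

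Monocyte-like cells also held more class II in WT 8 week MI than in WT P1 MI. H2-Ab1 had 1843 UPM in WT 8 week MI, against 352 and 315 in the WT P1 MI replicates, and rose by 2.63 ± 0.59 on the log2 scale (adjusted p = 0.000879, edgeR). Cd74 had 10951 in WT 8 week MI, against 2099 and 1446 in the WT P1 MI replicates, and rose by 2.81 ± 0.70 (adjusted p = 0.00416, edgeR). H2-DMb1 had 363 in WT 8 week MI, against 80.2 and 76.5 in the WT P1 MI replicates, and rose by 2.36 ± 0.51 (adjusted p = 0.000422, edgeR). H2-Aa, by 1.98 ± 0.59 (adjusted p = 0.0256, edgeR), and H2-Eb1, by 1.72 ± 0.56 (adjusted p = 0.0436, edgeR), completed the 5 of 10 genes called higher, where 2.23% of the 10571 genes tested were. Over all cells, 39.1% of the 294 monocyte-like cells of WT 8 week MI had a core UMI, against 31.2% and 21.01% in the WT P1 MI replicates. Thinned to 1500 UMIs, which left out 175 of those 294 cells, the share was 47.1% in WT 8 week MI, against 27.6% and 12.0% in the WT P1 MI replicates. The clusters behind these sums differed, since 289 of the 294 monocyte-like cells of WT 8 week MI were in a cluster led by Chil3 and the P1 cells lay mostly in one with Plac8, Fcgr1 and Ccr2 among its leading genes. Without the low-count filter, 2 of the 10 genes were called. The richest monocyte-like cell held 202 of 409 core UMIs in WT P1 MI replicate 1 and 486 of 5078 in replicate 2. It held 122 of 1900 in WT 8 week MI and 137 of 249 in WT P1 sham. The part of these cells in the results was not tested.
In the untested sham pair, H2-Aa was 1502 UPM in WT 8 week sham and 265 in WT P1 sham, a log2 ratio of 2.50, and 8 of 10 genes were more than 2-fold higher, where 10.9% of all genes were. With each library clustered on its own this H2-Aa ratio was -1.15. The clusters differed here too, with 321 of 516 cells of WT 8 week sham in a cluster led by Ear2, Adgre4 and Treml4, which held 12 of 53 cells of WT P1 sham. For WT P1 MI against WT P1 sham no gene was called by edgeR or DESeq2, where 0.388% of all genes were called by edgeR, and 1 gene had an unadjusted p under 0.05. H2-Ab1 had 352 and 315 UPM in the WT P1 MI replicates and 115 in WT P1 sham (log2 difference 1.64, adjusted p = 0.828, edgeR). With Mertk KO P1 MI set against WT P1 MI, neither tool called a gene, where 1.27% of all genes were called by edgeR, and 1 gene had an unadjusted p under 0.05. H2-Aa had 172 in Mertk KO P1 MI, against 604 and 409 in the WT P1 MI replicates, a log2 difference of -1.31 ± 0.65 (adjusted p = 0.712, edgeR). The 10 neutrophil markers summed to 12358 UPM in monocyte-like cells of Mertk KO P1 MI, 10074 in Mertk KO P1 sham, 1139 in WT 8 week MI, 417 in WT 8 week sham, 1452 and 17500 in the WT P1 MI replicates and 2325 in WT P1 sham, and their part in these results was not tested.

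Dendritic cell-like cells could not be fitted, because 2 libraries had fewer than 20 of them. Cd74 had 81551 UPM in WT 8 week MI and 25126 in WT 8 week sham, a log2 ratio of 1.70. H2-Ab1 had 20062 in WT 8 week MI and 9450 in WT 8 week sham, a log2 ratio of 1.09, and H2-DMb2 had 726 in WT 8 week MI and 234 in WT 8 week sham, a log2 ratio of 1.64. These genes, H2-DMb1 and H2-Oa were the 5 of 10 more than 2-fold higher, where 23.2% of all genes were. The median dendritic cell-like cell held 1553 UMIs in WT 8 week MI and 12195 in WT 8 week sham, and the part of depth in the result was not tested. The coactivator gene Ciita was at 69.7 UPM in WT 8 week MI and 143 in WT 8 week sham. In the libraries labelled Mertk KO, H2-Aa had 3298 in Mertk KO P1 MI and 5976 in Mertk KO P1 sham, a log2 ratio of -0.86. Only H2-Ob was more than 2-fold lower there, where 10.1% of all genes were. Mertk KO P1 MI also had the lowest share of dendritic cell-like cells with a core UMI, 70.3% of 64 cells, against 89.9% of 69 cells in Mertk KO P1 sham.

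B cell-like cells gave few calls. Against WT P1 MI, 1 of the 10 genes was called in WT 8 week MI, where 1.67% of the 6775 genes tested were called higher. It was H2-DMb2, with 888 UPM in WT 8 week MI, against 281 and 293 in the WT P1 MI replicates, a rise of 2.01 ± 0.51 on the log2 scale (adjusted p = 0.00649, edgeR). Cd74 had 28195 in WT 8 week MI, against 9362 and 11298 in the WT P1 MI replicates, and did not pass (1.82 ± 0.63, adjusted p = 0.0942, edgeR). The count was 5 with DESeq2 and 0 with doublets kept, and the median B cell-like cell of WT 8 week MI held 716 UMIs. All 91 cells of WT 8 week MI were in a cluster led by Igkc and Cd79a, which held 6 cells of WT P1 MI replicate 1 and 89 of replicate 2, and the other 49 and 56 cells of these replicates were in one led by Ms4a1 and Vpreb3. For WT P1 MI against WT P1 sham no gene was called by edgeR or DESeq2, where 0.0148% of all genes were called by edgeR, and 1 gene had an unadjusted p under 0.05. With Mertk KO P1 MI set against WT P1 MI, neither edgeR nor DESeq2 called a gene, where 0.118% of all genes were called by edgeR, and 0 genes had an unadjusted p under 0.05. In the untested sham pair, H2-Aa had 4938 in WT 8 week sham and 2162 in WT P1 sham, a log2 ratio of 1.19, and 4 of 10 genes were more than 2-fold higher, where 3.69% of all genes were.

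Endothelial-like cells held little class II, and most of it was in the WT 8 week libraries. Cd74 had 13.2 UPM in Mertk KO P1 MI, 13.8 in Mertk KO P1 sham, 328 in WT 8 week MI, 221 in WT 8 week sham, 93.1 and 11.9 in the WT P1 MI replicates and 8.98 in WT P1 sham. Both WT 8 week libraries lay above all 5 P1 libraries. Cd74 rose by 2.44 ± 0.44, H2-Aa by 2.70 ± 0.75 and H2-Ab1 by 2.95 ± 0.76 on the log2 scale in WT 8 week MI against WT P1 MI, all called by edgeR and none by DESeq2, where 1.61% of the 12482 genes tested were called higher by edgeR. The filter on low counts left 8 of the 10 genes, without H2-Oa and Ciita, and WT 8 week MI held 59 endothelial-like cells. In the untested sham pair, all 10 genes were more than 2-fold higher in WT 8 week sham than in WT P1 sham, where 12.6% of all genes were. The groups drew on different clusters, since 1600 of 2118 cells of WT 8 week sham were in a cluster led by Timp4 and Aqp1, which held 5 of 274 cells of WT P1 sham, and 37 of the 59 cells of WT 8 week MI were in a shallow one led by Rbp7 and Fabp4. From WT P1 sham to WT 8 week sham the core level rose in other classes too. It went from 0 to 480 UPM in neutrophil-like cells and from 19.2 to 158 in NK cell-like cells. In mural cell-like cells it went from 4.13 to 74.7 and in T cell-like cells from 564 to 2237. The rise was therefore not limited to endothelial-like cells.
Fibroblast-like cells differed between the ages too. With cells thinned to 1500 UMIs and shallower cells left out, Cd74 was seen in 54.5% (exact 95% interval 32.2% to 75.6%, 12 of 22 cells) of endothelial-like cells of WT 8 week MI and 11.1% (9.61% to 12.8%) of those of WT 8 week sham. In fibroblast-like cells it was seen in 27.5% (20.5% to 35.4%) of WT 8 week MI and 9.12% of WT 8 week sham, and in at most 1.26% of every P1 library. In WT 8 week sham it was also seen in 19.9% of T cell-like, 20.5% of neutrophil-like, 12.1% of NK cell-like and 7.61% of mural cell-like cells. The endothelial share of WT 8 week sham thus lay above those of fibroblast-like and mural cell-like cells. It lay below those of NK cell-like, T cell-like and neutrophil-like cells. In WT 8 week MI the endothelial and fibroblast intervals overlapped. Free RNA in droplets reaches all classes, and its part in these shares was not tested.
The high value of WT P1 MI replicate 1 came mainly from 1 cell. That cell held 134 of the 214 Cd74 UMIs, 142698 UMIs in all and 243 UMIs of B cell markers, and without it the level was 37.1 UPM. Other P1 libraries had such cells too, with 28 of 43 Cd74 UMIs in 1 cell of WT P1 sham and 35 of 46 in Mertk KO P1 sham. Without the richest cell, the level was 3.20 UPM in WT P1 sham and 3.45 in Mertk KO P1 sham. It was 9.66 in WT P1 MI replicate 2 and 8.68 in Mertk KO P1 MI. Cd74 was called higher in WT P1 MI than in WT P1 sham by 2.43 on the log2 scale and called lower with Mertk KO P1 MI set against WT P1 MI, by a log2 fold change of -1.83, where 0.385% and 1.2% of all genes were called in those directions. Without replicate 1 the values were 0.47 and 0.13, so both rested on that library.

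**Figure D5:**
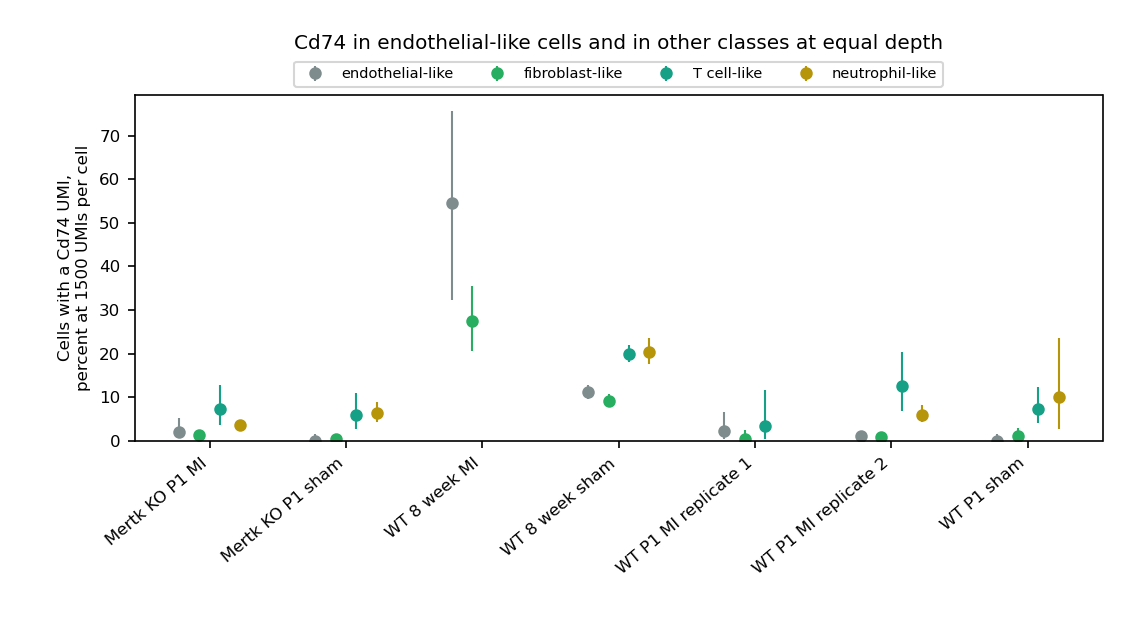
Share of cells with a Cd74 UMI after thinning each cell to 1500 UMIs (percent, with exact 95% binomial intervals) in endothelial-like, fibroblast-like, T cell-like and neutrophil-like cells, by library; classes with fewer than 20 thinned cells are left out. The endothelial share lies below those of T cell-like and neutrophil-like cells in WT 8 week sham.

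Other genes of the pathway were read in macrophage-like cells from 4 lists. Of 9 genes of peptide supply and traffic, 5 were called higher in WT 8 week MI when set against WT P1 MI, where 10.9% of all genes tested were, and the median log2 fold change of the list was 1.24, against -0.02 over all genes tested. Ctss, the cathepsin that trims the invariant chain, had 5008 UPM in WT 8 week MI and a mean of 1153 in WT P1 MI, and rose by 2.47 ± 0.55 (adjusted p = 0.000144, edgeR). Ctsb, at 8973 in WT 8 week MI and a mean of 2288 in WT P1 MI, rose by 2.37 ± 0.59 (adjusted p = 0.00102, edgeR), and the other proteases called were Ctsd, Lgmn and Ctsl. Ctsb and Lgmn were also among the 10 leading genes of the Ms4a7, Ccl8, Gpnmb and Spp1 cluster. That cluster held 1588 cells of WT 8 week MI, 25 of WT P1 MI replicate 2 and 0 of replicate 1, and its part in these rises was not tested. Of the 8 enhanceosome genes, which encode the factors that recruit Ciita, 1 was called lower, where 10.5% of all genes tested were, so the count is near that background. It was Rfxap, with 3.30 UPM in WT 8 week MI and a mean of 23.0 in WT P1 MI, and it fell by 2.60 on the log2 scale (adjusted p = 8.77e-06, edgeR). Of the 8 interferon-gamma pathway genes, 2 were called lower, against the same 10.5%. They were Irf1, a transcription factor induced by interferon (log2 fold change -1.92, adjusted p = 0.000431, edgeR), and Socs1, a feedback inhibitor (log2 fold change -2.80, adjusted p = 0.00944, edgeR). Of the 6 costimulation genes, 5 were tested and 0 called, with 2 at an unadjusted p under 0.05. In WT P1 MI against WT P1 sham, no gene of the 4 lists was called, and 1 of the 30 genes tested had an unadjusted p under 0.05. With Mertk KO P1 MI set against WT P1 MI, none was called either, and 4 had an unadjusted p under 0.05. The age interaction was called for Rfxap (-3.04, adjusted p = 0.00104, edgeR) and for Lgmn (2.82, adjusted p = 0.0176, edgeR). In monocyte-like cells Lgmn had 1643 UPM in WT 8 week MI and a mean of 433 in WT P1 MI, and rose by 2.14 ± 0.56 (adjusted p = 0.00842, edgeR).

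Ciita itself was sparse. It had 70.7 UPM in dendritic cell-like cells of Mertk KO P1 MI, 100 in those of Mertk KO P1 sham, 69.7 in WT 8 week MI, 143 in WT 8 week sham, 119 and 38.4 in the WT P1 MI replicates and 106 in WT P1 sham. B cell-like cells held 19.6 to 86.7, macrophage-like cells 0 to 21.4 and monocyte-like cells 2.05 to 24.2. In macrophage-like cells of WT P1 MI replicate 1 the count of 0 allows up to 4.01 UPM. WT 8 week sham held the highest Ciita level of the 7 libraries in dendritic cell-like, B cell-like, macrophage-like and monocyte-like cells.

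Across 77 sums of a class in a library, the 10 genes followed the core level to different degrees, given as a description because the sums share libraries and depth. On the log2 scale with 10 UPM added, Pearson's r with the core level was 0.984 for Cd74, 0.939 for H2-DMa, 0.849 for H2-DMb1, 0.822 for Ciita, 0.796 for H2-DMb2, 0.753 for H2-Ob and 0.747 for H2-Oa. Among the other 15182 genes compared, the 10 most alike were Pkib (0.848), Ly86 (0.835), Ms4a4c (0.818), Cd180 (0.815), Cd83 (0.812), Fgd2 (0.809), Ifi30 (0.793), Ctss (0.788), Irf5 (0.785) and Cd86 (0.784). Pkib therefore followed the core level as closely as H2-DMb1, and more closely than Ciita. Ifi30, Ctss and Cd83 are in the list of peptide supply and traffic and Cd86 in that of costimulation.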

How the data were processed

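The deposited tables hold whole-number counts of unique molecular identifiers (UMIs) per gene and cell barcode, made by the authors with Cell Ranger 4.0.0 in 5 libraries and 6.1.0 in 2, per the file headers, on GRCm38. Hearts were dissociated and sequenced with 10x 3′ chemistry, v3 or v3.1, per the labels' protocols. The sources used here do not state other filters before deposit or the counting strand.

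A cell was kept if it had 500 UMIs or more, 300 genes or more and no more than 15% of its UMIs from mitochondrial genes. The barcodes with the highest Scrublet scores, 0.8% per 1000 barcodes, were removed as doublets, because the tool's own threshold marked few. It marked from 0% of cells in WT 8 week sham to 2.13% in WT P1 MI replicate 2. Cells of all libraries were clustered together with scanpy 1.11.5 (2000 variable genes without the 10 class II genes, 30 components, 15 neighbours, Leiden resolution 1.5 with leidenalg 0.10.2, seed 0) into 45 clusters, named as cell classes from marker lists. A cluster with no marker of its class among its 10 leading genes was set aside if the mean scaled marker score of another class was higher in any library with at least 20 of its cells, a rule written after the data were seen. The score weighs each marker alike, so summed marker UMIs can rank classes differently. Names are rebuilt here and may differ from the study's.

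UMIs were summed and given per 1000000 UMIs (UPM) per class and library with at least 20 cells. All sums of a class entered 1 edgeR 4.0.16 quasi-likelihood fit (TMM scaling, filterByExpr, Benjamini-Hochberg over all genes tested; R 4.3.3). That fit has 1 residual degree of freedom, from the 2 WT P1 MI libraries, and every lone library was assumed to vary like them. A call needed an adjusted p below 0.05 together with a log2 fold change of size 1 or more. Pairs of lone libraries were compared as log2 ratios with 0.5 counts added and no test. Intervals are exact or approximate 95% intervals and, like the limit of 3 counts for a count of 0, cover counting error only. The fit recovered known changes on simulated counts. Every simulated library varied alike, so the simulation could not check the assumption made for lone libraries. Shares at equal depth are of cells thinned to 1500 UMIs, and cells with fewer were left out. The alternatives were DESeq2 1.42.0, library totals, no low-count filter, doublets kept, other clusterings, 5 counts added and each WT P1 MI replicate left out. Named genes were the 10 members, the called genes of 4 pathway lists, of which 1 result is not reported here, and the 10 genes most alike by Pearson's r. H2-Ea was also listed and not analysed here. The members, lists and classes were chosen with earlier results of these data known.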

Additional observations from a re-analysis of the deposited data

Results flagged for a closer look

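In macrophage-like cells, the effect of MI at 8 weeks minus that at P1 differed from 0 by edgeR's test of the interaction for 4 genes, on the log2 scale. H2-Eb1 had -4.06 (adjusted p = 5.08e-05, edgeR), from 595 UPM in WT 8 week MI and 1714 in WT 8 week sham, and from 355 and 465 in the WT P1 MI replicates and 65.4 in WT P1 sham. H2-Aa had -3.36 (adjusted p = 0.00225, edgeR) and H2-Ab1 had -2.88 (adjusted p = 0.0123, edgeR). Ciita had -3.26 (adjusted p = 0.0479, edgeR) on 22 UMIs or fewer in 3 of the 5 libraries compared, and 2.90 without WT P1 MI replicate 2. The sums of WT 8 week MI and WT 8 week sham drew on different clusters, and their part in these interactions was not tested.

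The effect of MI in the libraries labelled Mertk KO minus that in WT differed for H2-Aa, by -2.89 (adjusted p = 0.0488, edgeR). Its levels were 186 UPM in Mertk KO P1 MI and 253 in Mertk KO P1 sham, and 339 and 539 in the WT P1 MI replicates and 77.2 in WT P1 sham. The lone WT P1 sham library enters both patterns, with 223 macrophage-like cells, of which 1 held 209 of the 463 core UMIs. WT P1 MI replicate 1 enters both too, and 1 of its 76 cells held 601 of the 761 core UMIs. In Mertk KO P1 sham the richest of 129 cells held 232 of the 736 core UMIs. In Mertk KO P1 MI the richest of 101 cells held 143 of 500.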

How the results depend on the processing

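No paired analysis was possible because WT P1 MI is the only group with more than 1 replicate number. With a replicate left out no residual degree of freedom was left, so such fits gave values with no test. Counts of the 10 genes called in macrophage-like cells were, for WT P1 MI against WT P1 sham, 3 as reported and 0 with doublets kept, with clusters per library and with the set-aside cluster put back. For WT 8 week MI against WT P1 MI they were 6 as reported, 3 with DESeq2 and 2 with clusters per library. For Mertk KO P1 MI set against WT P1 MI 1 gene, H2-Ob, was called at a clustering resolution of 0.75. The age interaction gave 4 as reported and 1 with clusters per library. The genotype interaction gave 1 as reported, 0 with DESeq2, with no low-count filter, with doublets kept, at a resolution of 0.75, with macrophage-led clusters only and with the set-aside cluster put back, and 3 with the members used in clustering. For WT 8 week MI against WT P1 MI, monocyte-like cells gave 2 with no low-count filter, and B cell-like cells 5 with DESeq2 and with clusters per library, 3 with library totals and 0 with doublets kept. Endothelial-like cells gave 0 with DESeq2 in all 3 comparisons; with clusters per library 0 for WT P1 MI against WT P1 sham and for Mertk KO P1 MI set against WT P1 MI; and with doublets kept 2 for WT P1 MI against WT P1 sham and 0 for Mertk KO P1 MI set against WT P1 MI.

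Untested counts past 2-fold in macrophage-like cells moved to 6 for WT 8 week MI against WT 8 week sham (resolution of 0.75, doublets kept, macrophage-led clusters only) and 9 (set-aside cluster put back). For Mertk KO P1 MI against Mertk KO P1 sham they were 0 with 5 counts added, 8 with clusters per library and 7 with the set-aside cluster put back. For Mertk KO P1 sham against WT P1 sham they were 6 at a resolution of 0.75 and with clusters per library, 8 with the members used in clustering, and 5 with doublets kept and with the set-aside cluster put back. The dendritic cell-like count for Mertk KO P1 MI against Mertk KO P1 sham was 0 with 5 counts added and with doublets kept, and 3 at a resolution of 0.75. Directions turned for Ciita in the age interaction (2.90 without replicate 2, -3.66 without replicate 1), for Cd74 in endothelial-like cells of Mertk KO P1 MI set against WT P1 MI (0.13 without replicate 1, -2.72 without replicate 2), for H2-Ab1 in monocyte-like cells of WT P1 MI against WT P1 sham (-2.44, clusters per library) and for H2-Aa in those of WT 8 week sham against WT P1 sham (-1.15, clusters per library). The cause was not tested.

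Library totals in place of TMM moved the median log2 value of all genes by -0.353 in macrophage-like cells and -0.388 in B cell-like cells for WT 8 week MI against WT P1 MI, and by 0.344 in endothelial-like cells. Depth limits the sparse genes, since Ciita, H2-DMb2, H2-Oa and H2-Ob rest on few UMIs in macrophage-like cells of the P1 libraries.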
